A study of Mus musculus with 10 samples.

Results

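The 7 aquaporins Aqp1, Aqp3, Aqp4, Aqp7, Aqp8, Aqp9 and Aqp11 were followed in livers of 4-week-old male mice that had or had not carried a hairpin against Sod2 before birth. The genes were chosen by name from the aquaporin family, and the choice was made with group differences on these same arrays already known, the Aqp8 difference above all. Their values between groups are therefore a description and support nothing by themselves. All 7 had exactly 1 transcript cluster, the unit of probes that the array summarises, carrying that single gene symbol, out of 22180 genes with such a cluster. Of the 7, 6 passed a filter on low values (a mean of log2 3.98 over all arrays) and entered the fit over 13308 genes, while Aqp3 fell below it.

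The hairpin livers came from Rosa26-rtTA mice that also carried SOD2 shRNA 1 (3 arrays) or SOD2 shRNA 2 (3 arrays), and the controls were 4 littermates with Rosa26-rtTA alone. rtTA is a transcription factor that turns on a linked construct in the presence of doxycycline, here from the Rosa26 locus, which is active in most cell types and not limited to liver. Pregnant dams of all groups, controls included, received chow with doxycycline at 625 mg/kg, which placed the knockdown between days 0 and 12.5 of gestation, and RNA was taken at 4 weeks of age from 25 mg of liver. Control littermates of the shRNA 2 cohort numbered 3 and those of the shRNA 1 cohort 1, and the labels do not say which arrays these are. Hairpin and cohort therefore cannot be told apart in any difference between shRNA 1 and shRNA 2 livers. The shRNA 1 livers are set mostly against controls of the other cohort. Whether each array stands for its own animal is not stated, and p-values cover only the spread between samples, which may be technical. The 6 hairpin livers together are called adapted, after the title of the series.

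Aquaporins are membrane channels that form tetramers, with a water pore in each subunit. The classical members pass water, the aquaglyceroporins also pass glycerol and other small solutes, and some members let hydrogen peroxide or ammonia through. In liver they are known for bile water flow, glycerol uptake for glucose production, and transport across internal membranes. Sod2 encodes the mitochondrial superoxide dismutase, which turns superoxide into hydrogen peroxide, and the peroxide and ammonia channel Aqp8 has been described in rat hepatocytes at the canalicular side and in mitochondria.

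The promoter of Aqp8 is shown because Aqp8 differed from control the most of the 7 and because clock genes, among them Arntl and Clock, whose proteins bind E-boxes, varied between these arrays. It is a window of 300 bases around the RefSeq start of the gene, at chr7:123462044-123462343 on the plus strand of GRCm38.p6, with a GC content of 52.0%, and capitals mark an E-box.
Aqp8: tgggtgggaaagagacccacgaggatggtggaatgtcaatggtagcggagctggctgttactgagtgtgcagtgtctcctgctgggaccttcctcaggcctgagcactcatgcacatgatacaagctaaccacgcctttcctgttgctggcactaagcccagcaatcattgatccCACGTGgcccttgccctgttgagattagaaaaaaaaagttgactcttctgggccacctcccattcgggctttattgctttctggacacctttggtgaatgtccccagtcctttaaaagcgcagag
Of 5 motifs searched on both strands, the promoter held CACGTG once, with its first base at position -75 from the start, and this motif was found in 7.15% of 32851 promoters of the same length. It held no TGACNNNGC, the core of the antioxidant response element (12.4% of promoters), no D-box TTATGNAA (3.38%), no HNF4 letters CAAAGTCCA (0.475%) and no TATAAA (13.6%). In the promoters of Aqp1, Aqp3, Aqp7, Aqp9 and Aqp11, the single match was a TATAAA of Aqp3 at position -29, and Aqp4 was not searched. Such matches describe letters in a window and not sites in use. Aqp8 itself had no called slope on a score of clock genes, described below (limma adjusted p = 0.596). A part of the E-box in the Aqp8 values was not tested.

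Array values had medians between 4.06 and 4.17, and any 2 arrays correlated at 0.989 to 0.994 over genes. Sod2 itself averaged 10.39 ± 0.06 in shRNA 1 livers and 10.35 ± 0.12 in shRNA 2 livers (SD, n = 3 each), against 10.38 ± 0.08 in control livers (SD, n = 4), weeks after the doxycycline had ended. The 8 hepatocyte markers had a mean between 12.57 and 12.62 on the adapted arrays and between 12.54 and 12.64 on the control arrays. Arrays differed in the phase of the circadian clock within every group. A score of 9 clock genes (the mean of Arntl, Npas2 and Clock minus that of Nr1d1, Nr1d2, Dbp, Tef, Per3 and Ciart) was below 0 on 1 of 3 shRNA 1, 2 of 3 shRNA 2 and 1 of 4 control arrays, and the labels used here give no time of day.

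Aqp8 was higher in shRNA 1 livers than in every control liver. Its log2 values were 8.47, 8.47 and 8.80 in shRNA 1 livers and 7.96, 7.91 and 8.12 in shRNA 2 livers, against 7.15, 7.97, 7.55 and 7.61 in control livers. The shRNA 1 arrays did not overlap with either other group, whereas only 1 of the 3 shRNA 2 arrays lay above all controls, the other two falling just under control replicate 2. Group means were 8.58 ± 0.19 for shRNA 1 and 8.0 ± 0.11 for shRNA 2 (SD, n = 3 each), against 7.57 ± 0.33 for control (SD, n = 4).

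**Figure D1:**
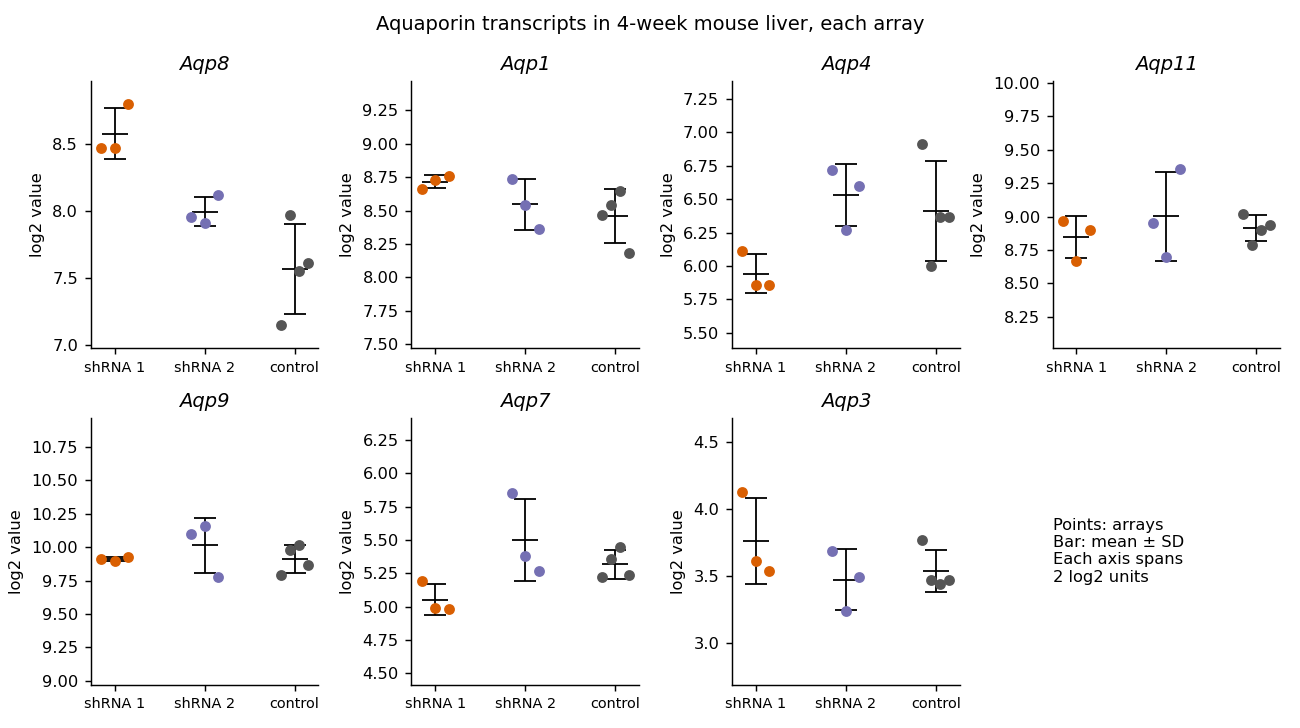
Log2 value of the 7 aquaporins on every array (points) with the mean and SD (bars) of shRNA 1 (n = 3), shRNA 2 (n = 3) and control livers (n = 4), every axis covering the same span. The shRNA 1 points of Aqp8, 8.47 to 8.80, stand above all control points, and those of Aqp7, 4.98 to 5.19, stand below them.

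The Aqp8 difference from control was +1.01 on the log2 scale for shRNA 1 (SE 0.16, 95% interval 0.65 to 1.37), a ratio of 2.02, and +0.43 for shRNA 2 (SE 0.16, interval 0.07 to 0.79), a ratio of 1.35. For the adapted livers together it was +0.72 (SE 0.14, interval 0.42 to 1.03), a ratio of 1.65. None passed the threshold of 0.05 after Benjamini-Hochberg adjustment over all 13308 genes in limma: the adjusted p was 0.0609 for shRNA 1, 0.621 for shRNA 2 and 0.19 for adapted livers. The shRNA 1 difference did pass with a 60th percentile level filter (adjusted p = 0.0396), when arrays were weighted (0.0422) and when a robust prior followed an intensity trend (0.0234). Over all genes those settings called 15 of 8872, 19 of 13308 and 30 of 13308 in this comparison, against 0 in the main fit. Among alternatives that left more than 1 array in every group, its adjusted p ran from 0.0234 to 0.339. Between hairpins Aqp8 differed by +0.58 (SE 0.18, shRNA 1 minus shRNA 2, adjusted p = 0.687), so that a difference between them was not established. Hairpin and cohort cannot be told apart in it. Without the 4 arrays whose clock score was below 0, which leaves 1 shRNA 2 array assumed to vary like the others, the shRNA 1 difference was +0.93 and the shRNA 2 difference +0.21. With only those 4 arrays, of which 1 was a control and 1 a shRNA 1 array, they were +1.32 and +0.89. That control, replicate 1, had the lowest Aqp8 value of the controls, 7.15.

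Across genes the comparisons gave few calls, and the aquaporins are read against that. With adjusted p under 0.05, 0.00751% of the 13308 genes were called in adapted against control, 0% in shRNA 1 against control, 0.00751% in shRNA 2 against control and 0.015% in shRNA 1 against shRNA 2, and 0 of the 6 aquaporins tested in limma were called in any of them. At an unadjusted p under 0.05, the count was 1 of 6 in adapted livers (Aqp8), where 8.37% of all genes were past it. It was 2 of 6 in shRNA 1 (Aqp8 higher, Aqp4 lower), with 7.89% of all genes, and 1 of 6 in shRNA 2 (Aqp8), with 7.6% of all genes. Between hairpins it was 3 of 6 (Aqp8 higher in shRNA 1, Aqp4 and Aqp7 lower), with 6.02% of all genes. Groups did not overlap for 3 of 6 aquaporins in shRNA 1 against control (Aqp1 and Aqp8 higher, Aqp7 lower), where this held for 8.9% of genes, and for 3 of 6 in shRNA 1 against shRNA 2 (Aqp8 higher, Aqp4 and Aqp7 lower), against 11.3% of genes. They overlapped for all 6 tested aquaporins in adapted against control and in shRNA 2 against control, where 1.88% and 7.29% of genes were free of overlap. The median difference of the 6 was +0.03 in adapted, -0.03 in shRNA 1 and +0.11 in shRNA 2 livers against the same controls, beside 0.01, 0.01 and 0.00 over all genes. Since these comparisons share their samples and the members were chosen with the values known, the counts are a description.

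**Figure D2:**
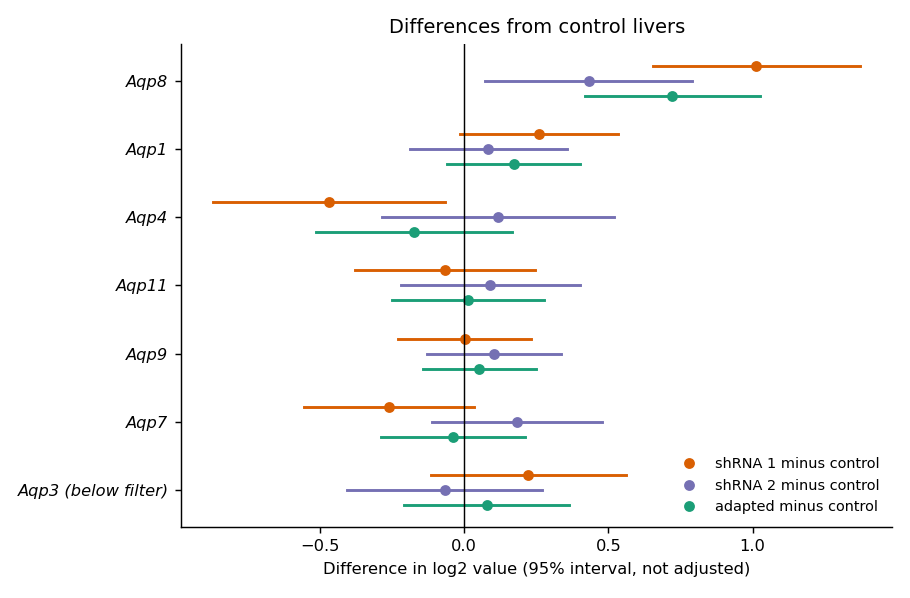
Difference in log2 value from control livers for each aquaporin (points) with its 95% interval, not adjusted for the number of genes (lines), for shRNA 1, shRNA 2 and adapted livers. Aqp8 is the row whose 3 intervals all lie above 0, while the shRNA 1 interval of Aqp4, -0.87 to -0.07, lies below it. Aqp3 comes from a fit without the level filter.

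Of the water channels, Aqp1, the channel of endothelium and red cells, was slightly higher in shRNA 1 livers. It had 8.66, 8.73 and 8.76 in shRNA 1 livers and 8.74, 8.54 and 8.36 in shRNA 2 livers, against 8.47, 8.54, 8.65 and 8.18 in control livers. All shRNA 1 values lay above the highest control, by a narrow margin, and the shRNA 2 values overlapped the controls. The difference from control was +0.26 for shRNA 1 (SE 0.12, limma adjusted p = 0.662) and +0.08 for shRNA 2 (SE 0.12, adjusted p = 0.905). Without control replicate 4 they were 0.166 and -0.01. The shRNA 2 difference was also -0.014 without shRNA 2 replicate 1, 0.178 without shRNA 2 replicate 3 and 0.148 without control replicate 3. The 8 endothelial markers, all above the filter, had list means of 9.01 to 9.07 on shRNA 1 arrays and 8.87 to 8.96 on shRNA 2 arrays, against 8.79 to 8.93 on control arrays. In shRNA 1 against control 6 of the 8 were higher, beside 52.4% of all genes. Their median was +0.11, from -0.04 for Stab2 to +0.75 for Ehd3 (smallest limma adjusted p of the list 0.271). In shRNA 2 against control 6 of the 8 were also higher, with a median of +0.08, beside 51.2% of all genes. Their part in the Aqp1 values was not tested, and in bulk tissue a change in the number of cells of a type and a change in RNA per cell cannot be told apart. Of 9 erythroid genes 4 were measured, and all but Slc4a1 were below the filter.

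Aqp4, the water channel best known from astrocyte end feet and skeletal muscle, was lower in shRNA 1 livers than in shRNA 2 livers. Its values were 6.11, 5.86 and 5.86 in shRNA 1 livers and 6.72, 6.27 and 6.60 in shRNA 2 livers, against 6.91, 6.0, 6.37 and 6.37 in control livers. The hairpin groups did not overlap, and 2 of 3 shRNA 1 arrays lay below all controls. The difference from control was -0.47 for shRNA 1 (SE 0.18, limma adjusted p = 0.545) and +0.12 for shRNA 2 (SE 0.18, adjusted p = 0.911), and between hairpins it was -0.59 (SE 0.20, adjusted p = 0.699). With the clock score as a covariate the shRNA 2 difference turned to -0.125 and that between hairpins shrank to -0.277. The shRNA 1 difference was -0.303 without control replicate 1. The shRNA 2 difference ran from -0.02 without control replicate 2 to 0.283 without control replicate 1, and was 0.024 without shRNA 2 replicate 1 and 0.248 without shRNA 2 replicate 2. Muscle markers had a list mean of 4.09 to 4.91 on shRNA 1 arrays, 3.90 to 4.16 on shRNA 2 arrays and 4.06 to 4.99 on control arrays. Of them Myh4, Mylpf and Pvalb were below the filter. Markers of pericentral hepatocytes had means of 8.79 to 8.89 on shRNA 1 arrays and 8.57 to 8.90 on shRNA 2 arrays, against 8.48 to 9.05 on control arrays. The part of either list in the Aqp4 values was not tested.

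Among the aquaglyceroporins, Aqp9, through which hepatocytes take up glycerol from the blood, was nearly level. It had 9.91, 9.90 and 9.93 in shRNA 1 livers and 10.10, 10.16 and 9.78 in shRNA 2 livers, against 9.79, 9.98, 10.02 and 9.87 in control livers. All 3 shRNA 1 arrays lay within the control range, while 2 shRNA 2 arrays lay above it and 1 just below. The adapted difference was +0.05 with a 95% interval of -0.14 to 0.25 (SE 0.09, limma adjusted p = 0.921), and over all 10 arrays Aqp9 covered 0.38 log2 units, against 1.65 for Aqp8.

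Aqp7, the glycerol channel through which fat cells release glycerol, had 5.19, 4.99 and 4.98 in shRNA 1 livers and 5.85, 5.38 and 5.27 in shRNA 2 livers, against 5.22, 5.36, 5.45 and 5.24 in control livers. All shRNA 1 arrays were below every control and every shRNA 2 array, by a narrow margin against control, and shRNA 2 replicate 1 was the highest array. The difference was -0.26 for shRNA 1 against control (SE 0.13, limma adjusted p = 0.684), +0.18 for shRNA 2 against control (SE 0.13, adjusted p = 0.805) and -0.44 between hairpins (SE 0.14, adjusted p = 0.687). Without shRNA 2 replicate 1 the last 2 were 0.009 and -0.269, and without shRNA 2 replicate 3 the shRNA 2 difference was 0.298. Aqp7 averaged 5.29 over all arrays, and how far this lies above background was not tested. The fat cell genes Adipoq, Lep and Retn were below the filter. The mean of the 6 measured fat cell markers was 4.33 to 4.45 on shRNA 1 arrays and 4.23 to 4.44 on shRNA 2 arrays, against 4.26 to 4.44 on control arrays.

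Aqp3, a glycerol and water channel known from kidney collecting duct and skin, was below the filter on average, with 4.13, 3.61 and 3.54 in shRNA 1 livers and 3.69, 3.24 and 3.49 in shRNA 2 livers, against 3.77, 3.47, 3.44 and 3.47 in control livers. Only shRNA 1 replicate 1 exceeded the filter level of 3.98, and the groups overlapped. In a fit without the filter the adapted difference was +0.08 (SE 0.13, limma adjusted p = 0.944). Aqp3 and Aqp7 are neighbouring genes on chromosome 4.

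Aqp11, an intracellular aquaporin of the endoplasmic reticulum whose loss in mice gives cystic kidneys, did not separate the groups. It had 8.97, 8.67 and 8.90 in shRNA 1 livers and 8.95, 8.70 and 9.36 in shRNA 2 livers, against 9.02, 8.79, 8.90 and 8.94 in control livers. shRNA 2 replicate 3 stood highest and every group overlapped with the others. The adapted difference was +0.01 with an interval of -0.25 to 0.28 (SE 0.12, limma adjusted p = 0.988), and it took the other sign, -0.045, with the clock score as a covariate.

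Among the aquaporins, Aqp3, Aqp4 and Aqp11 also differed between arrays of the same group by the sign of the clock score. In all 3 groups the array or arrays with a score below 0 had higher Aqp4 and Aqp11 values, and higher Aqp3 values, than the other arrays of that group. Aqp4 was 6.11 to 6.91 on the 4 arrays with a score below 0, against 5.86 to 6.37 on the other 6. Aqp11 was 8.95 to 9.36 on those 4 arrays and 8.67 to 8.94 on the other 6, without overlap but by a very narrow margin. The share of all genes that split in these ways was not counted, so that these orders are a description only. Aqp8 showed no such split, with 7.15 to 8.47 on the 4 arrays and 7.55 to 8.80 on the other 6.

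In the fit with the clock score as a covariate beside the groups, whose slopes were read off after the data were seen, Aqp4 had a slope of -0.26 log2 units per unit of score (SE 0.06, 95% interval -0.39 to -0.12) and Aqp11 one of -0.16 (SE 0.06, interval -0.29 to -0.03). Neither passed after adjustment (limma adjusted p = 0.218 and 0.341), and 0 of the 6 tested aquaporins were called, where 0.0751% of all genes were. At an unadjusted p under 0.05 the count was 2 of 6, both with a negative slope, where 11.9% of all genes were past it. The slope of Aqp8 was +0.12 (interval -0.06 to 0.30, adjusted p = 0.596) and that of Aqp9 +0.09 (adjusted p = 0.511), while Aqp1 and Aqp7 had slopes of 0.02 and -0.02. The score takes few distinct levels within a group, so that each slope leans on the 4 arrays below 0.

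**Figure D3:**
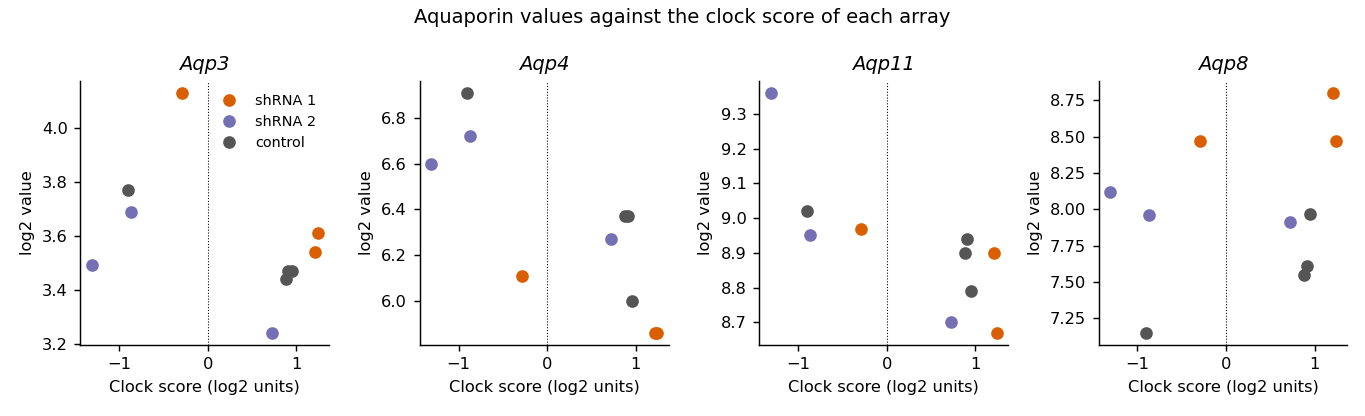
Log2 value of Aqp3, Aqp4, Aqp11 and Aqp8 (vertical axes) against the clock score of each array in log2 units (horizontal axis), coloured by group, with a dotted line at a score of 0. Left of the line Aqp11 runs from 8.95 to 9.36 and right of it from 8.67 to 8.94, while the shRNA 1 points of Aqp8 are the highest on either side of it.

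The other 5 mouse aquaporins were measured as well, of which Aqp6 and Aqp12 were below the filter. Aqp2, Aqp5 and Mip averaged 4.83, 5.25 and 5.4 over all arrays, and how far these lie above background was not tested. Aqp5, a channel of salivary and lacrimal glands, had 5.48, 5.52 and 5.69 in shRNA 1 livers and 4.88, 5.25 and 5.03 in shRNA 2 livers, against 5.38, 5.0, 5.07 and 5.14 in control livers. The shRNA 1 arrays lay above all others, with +0.41 against control (SE 0.12, limma adjusted p = 0.372). Aqp2, the vasopressin-regulated channel of the kidney collecting duct, had 4.74, 4.68 and 4.41 in shRNA 1 livers and 4.92, 4.79 and 4.92 in shRNA 2 livers, against 5.09, 4.90, 4.83 and 5.0 in control livers. The shRNA 1 arrays were below all others, with -0.35 against control (SE 0.11, adjusted p = 0.407), opposite in sign to its neighbour on chromosome 15, Aqp5. Of all genes, 8.9% did not overlap in shRNA 1 against control and 11.3% in shRNA 1 against shRNA 2. The share free of overlap in both was not counted. Mip, the aquaporin of lens fibres, differed by -0.02 in adapted livers (adjusted p = 0.982). In limma 0 of the 3 tested were called in any comparison, and the counts at an unadjusted p under 0.05 are set beside the share of all genes. Aqp2 was past it in adapted against control (8.37% of all genes), and both Aqp2 and Aqp5 were in shRNA 1 against control (7.89%) and in shRNA 1 against shRNA 2 (6.02%). None of the 3 was past it in shRNA 2 against control (7.6%).

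Markers of pancreatic acinar cells, which use Aqp8 in rat, were low throughout. Of the 8 pancreatic acinar genes 5 were measured, and Cpa1, Prss2, Cel and Cela3b were below the filter. Their list mean was 3.44 to 3.57 on shRNA 1 arrays and 3.45 to 3.60 on shRNA 2 arrays, against 3.45 to 3.62 on control arrays. The 5 measured bile duct markers, of which Krt19 and Cftr were below the filter, had means of 4.00 to 4.10 on shRNA 1 arrays and 4.10 to 4.23 on shRNA 2 arrays, against 4.11 to 4.30 on control arrays. The part of either list in the Aqp8 values was not tested.

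The nearest tested genes on each side of Aqp8 on chromosome 7 differed little from control, while Zkscan2, the coding gene next after it, was not tested. In adapted livers Lcmt1 and Arhgap17, before Aqp8, differed by +0.05 and +0.03, and Hs3st4 and Kdm8, farther on after it, differed by -0.04 and -0.03, with limma adjusted p from 0.915 to 0.96. In shRNA 1 livers the differences were +0.08 for Lcmt1, +0.02 for Arhgap17, -0.12 for Hs3st4 and -0.06 for Kdm8. Hs3st4 and Kdm8 had low group means, 4.15 to 4.32 and 4.80 to 4.86, beside the filter level of 3.98, which limits what they can show.

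The genes listed for hydrogen peroxide removal also include glutaredoxins, thioredoxins and their reductases. Of 19 listed 16 were measured, with 0 calls in limma in adapted against control, and Prdx1, Prdx5 and Prdx6 were not measured. Of the 16, 12 were higher and 4 lower, with a median of +0.09 beside 0.01 over all genes, of which 52.0% were higher. At an unadjusted p under 0.05 there were 2, both higher, beside 8.37% of all genes in either direction. Glrx, a glutaredoxin that reduces glutathionylated proteins, averaged 9.02 in shRNA 1 and 8.99 in shRNA 2 livers, against 8.61 in control livers, a difference of +0.39 in adapted livers (SE 0.11, adjusted p = 0.382). Prdx3, the mitochondrial peroxiredoxin, differed by +0.24 (adjusted p = 0.521) and Srxn1, which repairs overoxidised peroxiredoxins, by +0.17 (adjusted p = 0.691).

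Genes that make superoxide or peroxide, 15 of 18 listed being above the filter, also had 0 calls in limma, with 4 higher, 11 lower and a median of -0.06, beside 52.0% higher over all genes. Of these 1 was higher and 2 were lower at an unadjusted p under 0.05, beside 8.37% of all genes. Xdh, the xanthine dehydrogenase that can yield superoxide and peroxide, averaged 9.11 in shRNA 1 and 8.47 in shRNA 2 livers, against 8.47 in control livers. Its difference was +0.64 in shRNA 1 (SE 0.10, adjusted p = 0.0525) and 0.00 in shRNA 2. Aox3, an aldehyde oxidase, differed by -0.34 in adapted livers (adjusted p = 0.433) and Hao1, the peroxisomal glycolate oxidase, by -0.24 (adjusted p = 0.522).

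Beside the glycerol channels, 17 of 19 listed genes of glycerol and triglyceride handling were above the filter, with 0 calls in limma in adapted against control. Of them 15 were higher and 2 lower, with a median of +0.06, beside 52.0% higher and a median of 0.01 over all genes. At an unadjusted p under 0.05 there were 3, all higher, beside 8.37% of all genes. Gpam, the mitochondrial glycerol phosphate acyltransferase, differed by +0.30 (adjusted p = 0.427), Gpd1l by +0.31 (adjusted p = 0.431), and G6pc, the glucose phosphatase that ends gluconeogenesis, by +0.58 (SE 0.17, adjusted p = 0.431). Aqp9 and Aqp7 differed by +0.05 and -0.04 in the same comparison.

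The 18 genes listed for bile secretion also include uptake carriers such as Slc10a1, the nuclear receptor Nr1h4 and the junction genes Tjp1 and Cldn1. All 18 were above the filter, with 0 calls in limma, 8 higher, 10 lower and a median of -0.01 in adapted against control, where 52.0% of all genes were higher. At an unadjusted p under 0.05, 3 were higher, beside 8.37% of all genes. Abcb1a, a drug efflux pump of the canalicular membrane, averaged 5.91 in shRNA 1 and 5.81 in shRNA 2 livers, against 5.01 in control livers (+0.84 in adapted livers, SE 0.27, adjusted p = 0.433). Abcg5 and Abcg8, which form the sterol pump of bile, differed by +0.25 (adjusted p = 0.513) and +0.34 (adjusted p = 0.557). Of 12 measured genes, from 13 listed, of ammonia and urea handling, 10 were higher and 2 lower, with a median of +0.09, 3 higher at an unadjusted p under 0.05 and 0 called, against the same shares over all genes. Otc and Asl, enzymes of the urea cycle, differed by +0.21 (adjusted p = 0.522) and +0.27 (adjusted p = 0.534), and Slc25a15, the mitochondrial ornithine carrier, by +0.18 (adjusted p = 0.574).

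**Figure D4:**
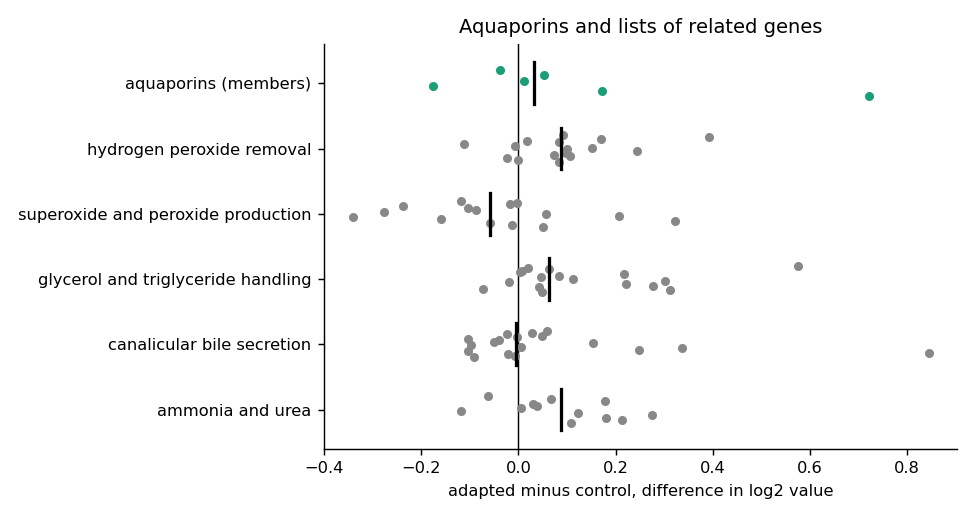
Adapted minus control difference in log2 value (horizontal axis) of each gene above the filter (points) for the 6 tested aquaporins and the lists of related genes, with the median of each list (black bar). Aqp8, at +0.72, lies above the other aquaporins, and list medians lie between -0.06 and +0.09.

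The gene whose pattern was most like that of Aqp8 over the 10 arrays was Gstt1, a glutathione transferase, with a Pearson r of 0.956, or 0.79 after group means were subtracted. Acss2, the cytosolic acetyl-CoA synthetase (0.926), Gpatch1 (0.926), Gstt3, another glutathione transferase of the theta class (0.924), and Tmem86b (0.923) came next. These correlations describe arrays that share RNA and normalization with Aqp8, and 0 of these 5 genes remained among the top 5 when group means were subtracted or when Spearman's rho was used. The closest patterns were Slc25a44 (0.944) and Naxd (0.936) for Aqp1, Cxcr4 (0.963) and Sirpa (0.931) for Aqp4, and Kif13a (0.929) and Srd5a3 (0.928) for Aqp7. For Aqp9 they were Nudcd2 (0.937) and Ccl6 (0.935), and for Aqp11 they were Abcc9 (0.949) and Rps6 (0.921).

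The aquaporins did not share 1 pattern. Of their 15 pairs over the 10 arrays, Aqp4 with Aqp8 had the most negative Pearson r, -0.75, which was also -0.75 after group means were subtracted. Aqp9 with Aqp11 had -0.59, or -0.82 within groups, while Aqp4 with Aqp11 had 0.58, or 0.56 within groups. Aqp8 and Aqp9 were nearly unrelated, with 0.07. All such values describe 10 arrays of common processing.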

How the data were processed

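The 10 arrays were 1-colour Affymetrix mouse 2.0 ST arrays of liver RNA. Each deposited value is a log2 level of a transcript cluster, and the authors made it with Affymetrix Expression Console, per the submitters' processing notes. A normalization method, software version or genome build was not given in the sources used here. A log2 scale fits the range of 1.40 to 13.8, and values were taken without further normalization. Precision is limited by the number of arrays.

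The platform annotation gave 1 gene symbol to 23521 of 41345 clusters, several to 1814 and none to 16010. By Entrez identifier 23328 matched the gene table of GRCm38.p6, with 0 symbols changed. The cluster of highest mean stood for a gene, which mattered for 1082 genes but for none of the 7 aquaporins. A filter removed genes under the 40th percentile of mean level.

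Groups came from the sample titles. A single limma fit over all arrays and groups (limma 3.58.1, R 4.3.3) gave each difference, two-sided, adjusted over all 13308 genes by the Benjamini-Hochberg method with a threshold of 0.05. The fit was tested on simulated data. Members, gene lists, markers and the naming rule were chosen with earlier results of these data known. The rule named all mouse aquaporins, the 5 genes most correlated with Aqp8 and 2 for each other tested member (predicted and small noncoding genes passed over), the 3 members of each list with the largest moderated statistic in adapted against control, and the 2 nearest tested genes on each side of Aqp8. Lists share some genes, such as Ass1 and Pck1. Alternatives covered normalization, filters, clusters, covariates, weights, variance prior, samples and threshold. Promoters are from RefSeq, and those of 6 members were searched. Figures used Python 3.11.15 and matplotlib 3.10.9.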

Additional observations from a re-analysis of the deposited data

Results flagged for a closer look

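Control replicate 1 had an Aqp3 value of 3.77, set apart from the other controls at 3.47, 3.44 and 3.47 by 0.895 of the whole control range, above Dixon's critical value for 4 samples. It was the control array with a clock score below 0, and Aqp3 lay below the level filter in all controls. Of the 7 aquaporins this was the only control group so marked, in a check that chance passes in about 5% of groups.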

How the results depend on the processing

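Of 572 differences of the 6 tested aquaporins recomputed under alternatives, 537 kept their direction and their side of the threshold, 4 passed it newly and 31 reversed. Filters, variance priors, the looser threshold and the choice of clusters cannot move a difference here. Nor can leaving out an array of a group outside the comparison. The count of kept directions is thus no measure of how stable the differences are. The 4 that passed newly were all Aqp8 in shRNA 1 against control, and each took the count of called aquaporins to 1 in place of 0. They were 1.013 with a 60th percentile filter (limma adjusted p = 0.0396), 0.99 with array weights (0.0422), 1.013 with an intensity trend and robust prior (0.0234) and 1.013 at a threshold of 0.10 (0.0609). Over all genes those settings called 15 of 8872, 19 of 13308, 30 of 13308 and 20 of 13308, against 0 in the main fit. Leaving out 1 array at a time, Aqp8 ran from 0.582 (without control replicate 1) to 0.855 in adapted, 0.873 to 1.146 in shRNA 1 and 0.291 to 0.564 in shRNA 2 livers against control. With the clock covariate, Aqp11 was -0.045 in adapted, -0.063 in shRNA 2 and 0.037 between hairpins, Aqp9 was -0.022 in shRNA 1 and Aqp4 was -0.125 in shRNA 2. Without the 4 arrays of a clock score below 0, added after the data were seen, Aqp11 was -0.135, -0.177 and 0.084 in the same comparisons and Aqp9 was -0.04 in shRNA 1. With only those 4 arrays, which hold 1 control, Aqp7 was 0.156 in adapted and Aqp4 -0.246 in shRNA 2, and Aqp8 was 1.107 in adapted. Quantile normalization gave -0.021 for Aqp11 in adapted and -0.037 for Aqp9 in shRNA 1, and array weights -0.018 for Aqp9 there. Leaving out 1 array gave ranges across 0 for Aqp11 (-0.077 to 0.087 in adapted, -0.128 to 0.022 in shRNA 1, -0.087 to 0.243 in shRNA 2, -0.311 to 0.019 between hairpins), Aqp7 in adapted (-0.126 to 0.019), Aqp9 in shRNA 1 (-0.04 to 0.036), and in shRNA 2 for Aqp4 (-0.02 to 0.283) and Aqp1 (-0.014 to 0.178). The cause of these reversals was not tested, and none of the reversed differences passed the threshold. Same-numbered samples of different groups correlated at r of -0.25 to 0.267 over 9 pairs, 4 over 0.1, and differently numbered ones at -0.279 to 0.272. With so few arrays this cannot exclude a tie behind the numbers. With the replicate block Aqp8 was 0.735 in adapted (adjusted p = 0.31), 1.026 in shRNA 1 (0.149) and 0.444 in shRNA 2 (0.71), Aqp9 was -0.015 in shRNA 1 and Aqp1 -0.01 in shRNA 2. The 60th percentile filter left out Aqp7. Low signal limits Aqp3, Aqp6 and Aqp12, and may also limit Aqp2, Aqp5 and Aqp7. The last 3 averaged 4.83, 5.25 and 5.29 over all arrays, under the 60th percentile level of 5.38.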
